A study of Homo sapiens with 8 samples.

Results

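The genes examined here are the translation initiation factor genes, the human genes whose symbol is EIF followed by a digit, and the measurement is where the transcription factor FLI1 sat on chromatin near their transcription start sites (TSS). GENCODE release 44 on GRCh37 holds 56 such protein-coding genes among 20149, which leaves 20093 other protein-coding genes for comparison. By the first digit of the symbol, 15 belong to the EIF2 group, 14 to the EIF3 group, 16 to the EIF4 group and 11 to EIF1, EIF5 and EIF6. FLI1 ChIP-Seq was made in OCI-Ly1 and VAL, established lines of germinal centre B-cell type diffuse large B-cell lymphoma (GCB DLBCL), with 2 replicates per line, no treatment and no genetic change named in the labels. Of the 4 FLI1 libraries, 3 were used, and values given in threes put OCI-Ly1 replicate 2 first, then VAL replicate 1, and VAL replicate 2 last. OCI-Ly1 replicate 1 was set aside as a source of sites because 33 of its 37 listed intervals exceed 1 Mb and only 1 passes. For each gene and library the best peak, the one with the highest -log10 q, was taken among peaks centred within 3 kb of any annotated TSS of the gene, and the gene was called bound when that -log10 q was at least 3. The -log10 q is the strength of evidence for a peak after adjustment for the number of places tested, and it rises with the reads at the summit as well as with the fold over the local background.

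Translation of most mRNAs begins when the eIF4F complex (the cap-binding protein eIF4E, the scaffold eIF4G and the RNA helicase eIF4A) loads the mRNA onto a small ribosomal subunit that carries eIF1, eIF1A, eIF3, eIF5 and the eIF2 complex with the initiator tRNA. eIF2 hydrolyses GTP at the start codon and is recharged by the exchange factor eIF2B, a step that stress kinases block by phosphorylating the alpha subunit of eIF2, while the 4E-BP proteins hold eIF4E away from eIF4G until the kinase mTORC1 phosphorylates them. FLI1 is an ETS family factor, which reads a GGAA core, and its preferred sites in the form CCGGAAA or CCGGAAG are common in promoters near the TSS. A peak shows that DNA of the place was recovered with the antibody, and says nothing of the activity of the gene.

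The peak lists differ in how many peaks pass, which bears on how many genes can be called in each. The 3 libraries had 5354, 973 and 6474 passing peaks. Reads at a passing summit, worked out from its fold and p-value, had medians of 8, 18 and 7, and no sampled passing peak had fewer than 6. Median folds over background of passing peaks were 6.10, 5.48 and 5.89, so VAL replicate 1 had the fewest passing peaks together with the most reads at them and the lowest fold. Library totals were not used, and why that library had fewer passing peaks was not tested. Counts of bound genes were therefore compared with other genes within a library, and a gene that passed in 1 library and missed the threshold in another is not shown to differ between the lines. With 1 usable OCI-Ly1 library no test between the lines was possible, and shares are given with Wilson 95% intervals that cover counting error only.

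The sequences shown first are examples of the ETS motif at summits, chosen because they hold it, so they say nothing of how common it is. Of the 17 initiation factor genes bound in both lines, 13 had CCGGAAA or CCGGAAG, on either strand, within 50 bp of the summit in the library where the gene's -log10 q was highest (76.5%, interval 52.7 to 90.4), against 60.4% of the 2523 other genes bound in both lines, a share inside that interval. The 12 of these with the highest -log10 q are printed below from the GRCh37 reference, 5′ to 3′ on the strand that carries the motif, with the motif in capitals and 10 bases on each side. The motif lay at chr19:10230589-10230615 for EIF3G, chr12:124118214-124118240 for EIF2B1, chr17:7211543-7211569 for EIF5A, chr3:184032382-184032408 for EIF4G1, chr10:72163892-72163918 for EIF4EBP2, chr2:27594053-27594079 for EIF2B4, chr11:65769815-65769841 for EIF1AD, chr3:150264446-150264472 for EIF2A, chr22:38245417-38245443 for EIF3L, chr2:233415341-233415367 for EIF4E2, chr16:28415172-28415198 for EIF3CL and chr12:53399933-53399959 for EIF4B.
EIF3G: gacggcggcaCCGGAAGtctcgttttc
EIF2B1: cggaagtgcgCCGGAAGtggggtgcgg
EIF5A: ggccgcggcaCCGGAAGtgccccccac
EIF4G1: gtgcggggagCCGGAAAtggttgtgga
EIF4EBP2: acgacgacgaCCGGAAGcgggcgaagg
EIF2B4: agaaccctggCCGGAAGttgcctggca
EIF1AD: ccgcgaaggaCCGGAAAggagcgccta
EIF2A: cactccgtaaCCGGAAGtgaattggcc
EIF3L: gcgagcaccgCCGGAAAgagcgaaatg
EIF4E2: ccgcgcaaaaCCGGAAGtacccgggcc
EIF3CL: tcggcgcttcCCGGAAGtgacgcgagg
EIF4B: agacttcctgCCGGAAGagtggcggga

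Of the 12 sequences, 9 carry CCGGAAG and 3 carry CCGGAAA, and in 7 the motif runs on to CCGGAAGT. The motif was on the strand of the gene in 8 and on the other strand in 4. It lay 2 to 40 bp from the summit, and in 8 of the 12 genes within 30 bp of a TSS of the gene. EIF4G1, the scaffold of the cap-binding complex, had it 1 bp from a TSS, and EIF3L, a subunit of the ribosome-binding eIF3 complex, 2 bp from one. EIF2B4, a subunit of the exchange factor for eIF2, was at the other end of the range with its motif 861 bp upstream.

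The 4 remaining genes bound in both lines, EIF2S1, EIF2S3, EIF4A1 and EIF4A2, had no CCGGAAA or CCGGAAG at their highest summit. EIF2S1 did have it within 50 bp of its passing summit in VAL replicate 2 (-log10 q 5.08), 64 bp from its highest summit. For contrast, the GGAA nearest to the highest summit is shown in capitals with 10 bases on each side, at chr14:67826658-67826681 for EIF2S1, chrX:24072733-24072756 for EIF2S3 and chr3:186501054-186501077 for EIF4A2.
EIF2S1: gaggcgaaccGGAAttgaggggtg
EIF2S3: cacaggaaacGGAAatggtctctc
EIF4A2: tcagggacgcGGAAaccccgtagg

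EIF4A1 had no GGAA on either strand within 50 bp of its highest summit, although its -log10 q of 18.1 in VAL replicate 2 was among the highest of the 56 genes. GGAA alone is short. Counted over all passing best peaks, 33 of the 35 bound initiation factor genes had it within 50 bp of a summit (94.3%). The share was 89.0% for the other bound genes, so its presence separates few genes. The absence of these letters from a window says nothing about how FLI1 came to be there.

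The share of initiation factor genes that was bound exceeded that of other protein-coding genes in each library. In OCI-Ly1 replicate 2, 25 of 56 were bound (44.6%, interval 32.4 to 57.6) against 18.9% of the other genes. VAL replicate 2 gave 26 of 56 (46.4%, interval 34.0 to 59.3) against 20.8%. In VAL replicate 1, which had the fewest passing peaks, 4 of 56 were bound (7.14%, interval 2.81 to 17.0) against 3.13%, and that interval spans the background. Taken over the libraries, 35 of 56 were bound in at least 1 (62.5%, interval 49.4 to 74.0) against 27.3% of the other genes, and 17 were bound in both lines (30.4%, interval 19.9 to 43.3) against 12.6%. The same 17 were those bound in at least 2 libraries, which held for 12.8% of the other genes. The intervals treat genes as independent draws, which neighbouring and duplicated genes are not, and no test of the difference was made.

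**Figure D1:**
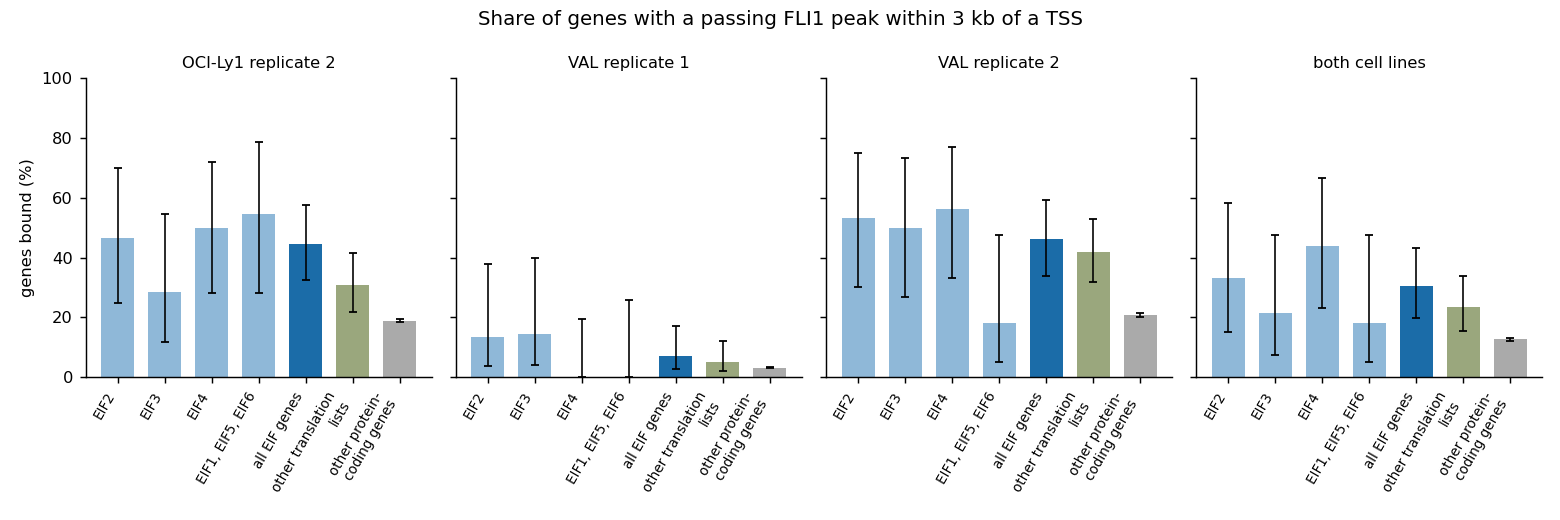
Share of genes bound (percent, vertical axis) in each of the 3 libraries and in both cell lines, with Wilson 95% intervals as bars, for the EIF groups, all 56 EIF genes, 81 genes of related translation lists and the 20093 other protein-coding genes. The bar of all EIF genes stands at 44.6% for OCI-Ly1 replicate 2 and 46.4% for VAL replicate 2, above the other genes at 18.9% and 20.8%, while the intervals of the separate groups overlap each other widely.

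Levels over all members were above those of other genes, while the levels of genes that passed were near those of other passing genes, a comparison the threshold itself shapes. Across all 56 genes, bound or not, the median best -log10 q was 2.45, 0.42 and 2.58 in the 3 libraries, with a gene that had no listed peak counted as 0. The other protein-coding genes had medians of 1.22, 0.18 and 1.63 in the same order. Among bound genes alone the medians were 6.49, 5.95 and 5.27 for the initiation factors and 6.20, 5.58 and 5.72 for the others. Best peaks of bound initiation factor genes had a fold over background of 5.08 to 14.2, 5.76 to 10.3 and 4.98 to 14.1. They rested on 6 to 19, 13 to 29 and 6 to 22 reads at the summit, so the weakest calls are at the limit of what these libraries can show.

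The gene groups could not be told apart by their shares. At least 1 library bound 10 of 15 EIF2 genes (66.7%, interval 41.7 to 84.8), 9 of 14 EIF3 genes (64.3%, interval 38.8 to 83.7), 10 of 16 EIF4 genes (62.5%, interval 38.6 to 81.5) and 6 of 11 of EIF1, EIF5 and EIF6 (54.5%, interval 28 to 78.7). Each of these intervals lies above the 27.3% of the other genes, and the groups cannot be ordered, since their intervals overlap. In both lines the counts were 5 of the EIF2 genes (33.3%), 3 of the EIF3 genes (21.4%), 7 of the EIF4 genes (43.8%) and 2 of the rest (18.2%), with intervals that overlap again, against 12.6% of the other genes. The intervals of the EIF3 genes (7.57 to 47.6) and of EIF1, EIF5 and EIF6 (5.14 to 47.7) include that share. VAL replicate 1 called 2 EIF2 genes (13.3%, interval 3.74 to 37.9) and 2 EIF3 genes (14.3%, interval 4.01 to 39.9), against 3.13% of the other genes. It called none of the 16 EIF4 genes, which allows a share of up to 19.4% and so includes that of the other genes.

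**Figure D2:**
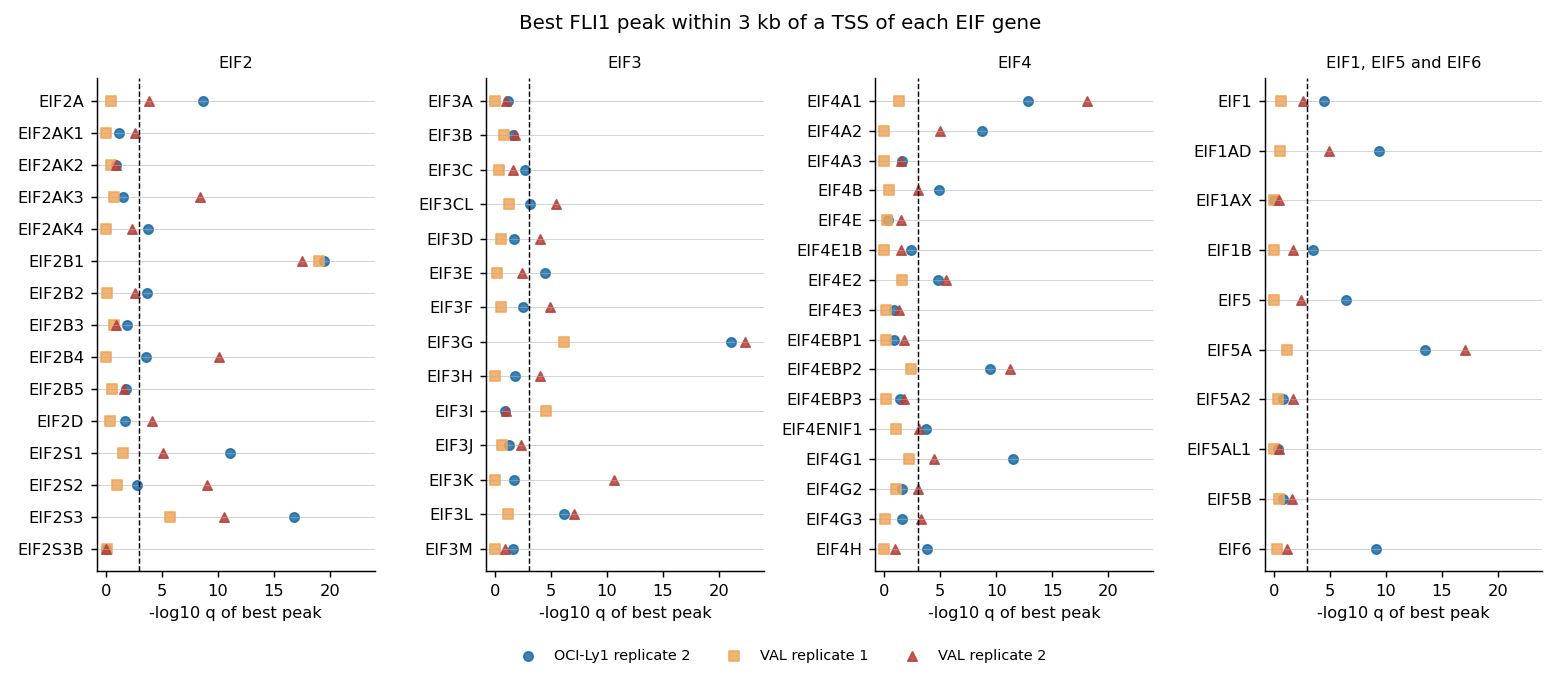
Best -log10 q within 3 kb of a TSS (horizontal axis, no unit) for each EIF gene (rows), in 4 panels by group (circles OCI-Ly1 replicate 2, squares VAL replicate 1, triangles VAL replicate 2). A gene with no listed peak stands at 0, the member on the Y chromosome is not drawn, and the dashed line marks the threshold of 3. EIF3G, EIF2B1 and EIF2S3 lie to the right of the line in all 3 libraries, and EIF3I is the only other gene whose square does.

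The eIF2 complex delivers the initiator tRNA. EIF2S3, its gamma subunit, which binds GTP and the tRNA, had a -log10 q of 16.83 in the OCI-Ly1 library and of 5.71 and 10.52 in the VAL libraries. All 3 libraries were over the threshold, with 15, 15 and 13 reads at summits 299 to 316 bp upstream of the TSS that lay within 10 bp of the highest one. EIF2S1, the alpha subunit that stress kinases phosphorylate, had 11.05, 1.55 and 5.08, in the same order of libraries as all values below. Its summits were 368 and 432 bp upstream of its own TSS and closer to the TSS of ATP6V1D. EIF2S2, the beta subunit, had 2.81, 0.99 and 9.04, so it was called in VAL replicate 2 and was the highest gene below the threshold in OCI-Ly1 replicate 2, where the summit lay 54 bp away. EIF2S3B, a paralogue of EIF2S3, had values of 0.12 or lower, so the 4 subunit genes ranged in their highest value from 0.12 to 16.83.

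Of the genes bound in all 3 libraries, the one with the closest values belongs to the exchange factor eIF2B. EIF2B1, its alpha subunit, had a -log10 q of 19.48, 19.0 and 17.48, resting on 19, 29 and 17 reads. Its value in VAL replicate 1 put it in place 50 among the 20149 protein-coding genes of that library, against places 334 and 430 in the other two. The summits of the 3 libraries lay within 53 bp of the OCI-Ly1 summit, and the window around each held the motif 2 times. This peak, chr12:124117768-124118565 in OCI-Ly1 replicate 2, also lies within 3 kb of a TSS of GTF2H3, whose TSS was the closer one in VAL replicate 2. EIF2B4, the delta subunit, had 3.59, 0.04 and 10.1, but its OCI-Ly1 and VAL summits were 698 bp apart, so the call in both lines covers different places in front of the gene, and both were closer to SNX17. EIF2B2 had 3.72, 0.07 and 2.57, and EIF2B3 and EIF2B5 did not pass in any library, with highest values of 1.94 and 1.80.

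The kinases of eIF2 gave 2 of 4 genes, each in 1 library (50%, interval 15 to 85). That interval includes the 27.3% of other genes bound in at least 1 library. EIF2AK3, known as PERK, the kinase of endoplasmic reticulum stress, had 1.57, 0.76 and 8.38, and its VAL replicate 2 summit was closer to RPIA, a gene of the pentose phosphate pathway. EIF2AK4, known as GCN2, the kinase of amino acid shortage, had 3.77, 0.0 and 2.37, at a summit 724 bp past an internal TSS and not at the 5′ end of the gene. EIF2AK1 and EIF2AK2 did not pass, with highest values of 2.60 and 0.95. Among the alternative tRNA carriers, EIF2A had 8.65, 0.50 and 3.84 with summits 152 bp apart in the 2 lines, and EIF2D had 1.72, 0.38 and 4.10. EIF2A faces SERP1, whose TSS was the closer one in VAL replicate 2.

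eIF3 is the large complex that holds the small ribosomal subunit and the mRNA, and EIF3G, which binds RNA within it, had the highest value of all initiation factor genes in the OCI-Ly1 library and in VAL replicate 2. Its -log10 q was 21.07, 6.18 and 22.35, with 18, 16 and 22 reads and folds of 14.2, 6.18 and 14.1. The 3 libraries placed the summit 15 to 42 bp upstream of the TSS and within 25 bp of the highest one, in a peak that no other gene shares (chr19:10229541-10230791 in VAL replicate 2). EIF3L had 6.18, 1.15 and 7.08, with summits 40 bp apart at a coding exon, near ANKRD54 as well. EIF3CL had 3.11, 1.25 and 5.45, and is the gene just over the threshold in OCI-Ly1 replicate 2.

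EIF3CL and EIF3C cannot be separated here. The 301 bases around the OCI-Ly1 summit of EIF3CL were found without a single difference beside the best summit of EIF3C (100% identity), and the authors kept only reads with 1 position. EIF3C had 2.71, 0.38 and 1.60, all below the threshold, and which copy the reads came from is uncertain.

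The remaining eIF3 genes passed in 1 library or none. EIF3K had 1.66, no listed peak and 10.62, the highest value of any initiation factor gene bound in a single library, although OCI-Ly1 replicate 2 had a summit only 12 bp away. This summit is also within 3 kb of a TSS of MAP4K1, a kinase of blood cells. EIF3I had 0.87, 4.57 and 0.95, the only initiation factor gene bound in VAL replicate 1 alone, which was also the case for 0.119% of the other genes. Its window held the motif 3 times, and its summit was closer to TMEM234. EIF3D, EIF3F and EIF3H passed in VAL replicate 2 with 3.99, 4.93 and 3.98, and EIF3E in OCI-Ly1 replicate 2 with 4.48. EIF3A and EIF3B, which belong to the conserved core of the complex, did not pass and had highest values of 1.12 and 1.77. EIF3J and EIF3M had highest values of 2.27 and 1.61.

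For the cap-binding complex, the helicase genes EIF4A1 and EIF4A2 and the scaffold gene EIF4G1 were called in both lines and EIF4E itself in neither. EIF4A1, the main helicase, had 12.79, 1.30 and 18.1, with summits 16 bp apart and 40 to 56 bp past a TSS. SENP3 and the small nucleolar RNA gene SNORA48 have TSS within 3 kb of the same peak. EIF4A2, the closely related helicase, had 8.70, no listed peak and 4.93, and SNORD2, another small nucleolar RNA gene, has a TSS within 3 kb of its peak. EIF4A3, which works in the exon junction complex, did not pass, with a highest value of 1.59. EIF4B and EIF4H, both helpers of the helicase, had 4.88, 0.45 and 3.01 and 3.77, no listed peak and 0.95.

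EIF4G1, the main scaffold, had 11.47, 2.17 and 4.42, with OCI-Ly1 and VAL replicate 2 summits 24 bp apart and at most 7 bp from a TSS. The value in VAL replicate 1 came from a peak 717 bp away. EIF4G3 and EIF4G2 passed in VAL replicate 2 alone with 3.27 and 3.0, the latter being the lowest value that passed there, on 6 reads. EIF4E, the cap-binding protein that limits initiation in many cells, had 0.34, 0.24 and 1.51. Of its relatives, EIF4E2 had 4.81, 1.60 and 5.46 with summits 20 bp apart, and EIF4E3 and EIF4E1B had highest values of 1.31 and 2.40.

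Of the genes whose products hold back eIF4E, EIF4EBP2 was bound and the other 4E-BP genes were not. EIF4EBP2 had 9.40, 2.42 and 11.23, with 12, 14 and 13 reads, and was the highest gene under the threshold in VAL replicate 1, at a summit 42 bp from that of VAL replicate 2. EIF4EBP1 had 0.87, 0.12 and 1.72 and EIF4EBP3 had 1.37, 0.18 and 1.71. EIF4ENIF1, which carries eIF4E into the nucleus, had 3.75, 1.01 and 3.07, but the OCI-Ly1 and VAL replicate 2 peaks were 6189 bp apart. At the OCI-Ly1 place VAL replicate 2 had 2.46, under the threshold, and the VAL peak lies at an internal TSS.

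The factors of start codon choice, subunit joining and later steps form the EIF1, EIF5 and EIF6 group. Of its 11 genes, OCI-Ly1 replicate 2 called 6 (54.5%, interval 28 to 78.7), against 18.9% of the other genes. VAL replicate 2 called 2 (18.2%, interval 5.14 to 47.7) against 20.8%, and VAL replicate 1 called 0 against 3.13%. The intervals of OCI-Ly1 replicate 2 and VAL replicate 2 overlap, so a difference between the lines is not shown. EIF5A, which carries hypusine and helps ribosomes past stalling sites, had 13.55, 1.18 and 17.06, with 15 reads in the OCI-Ly1 library, 16 in VAL replicate 2 and summits 77 bp apart. EIF1AD had 9.40, 0.57 and 4.91, with summits 116 bp apart that were closer to BANF1 in both lines. EIF6, which keeps the large ribosomal subunit from joining too early, had 9.15, 0.28 and 1.18, and its best peak in VAL replicate 2 was 3164 bp away. EIF5, which makes eIF2 hydrolyse GTP, had 6.49, 0.0 and 2.46, the last at a summit 68 bp away. EIF1, which guards the choice of the start codon, had 4.46, 0.67 and 2.60 and was the highest gene below the threshold in VAL replicate 2. EIF1B had 3.50 in OCI-Ly1 replicate 2, closer to EIF1B-AS1. EIF5B, EIF5A2, EIF5AL1 and EIF1AX did not pass, with highest values of 1.67, 1.71, 0.43 and 0.43.

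**Figure D3:**
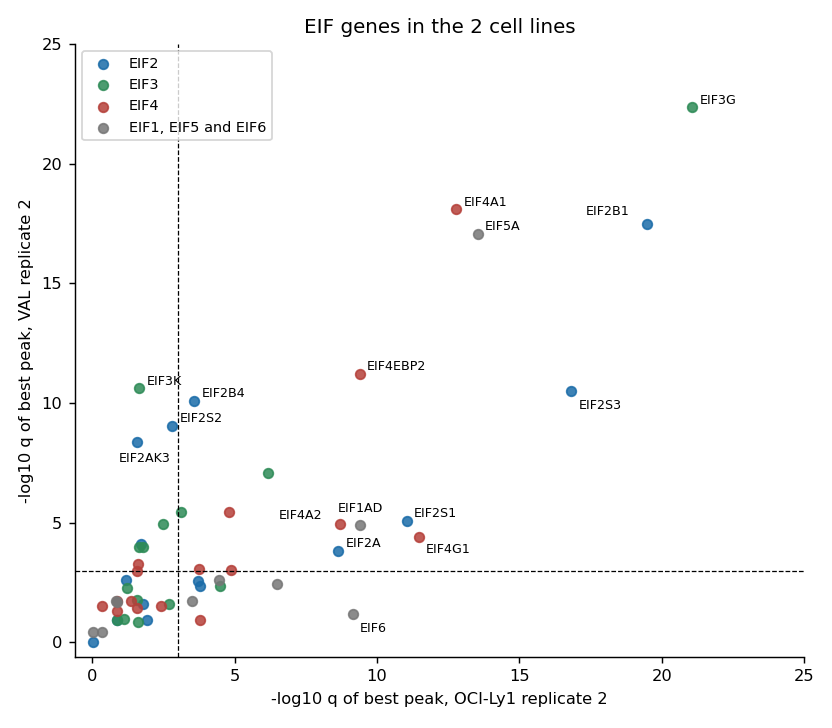
Best -log10 q in OCI-Ly1 replicate 2 (horizontal axis) against VAL replicate 2 (vertical axis) for each EIF gene, coloured by group, with dashed lines at the threshold of 3 and names for genes with a value of at least 8 in either library. EIF3G and EIF2B1 stand at the upper right, EIF6 is high only on the OCI-Ly1 axis at 9.15, and EIF3K only on the VAL axis at 10.62.

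Calls made in 1 line alone were found on both sides. In OCI-Ly1 and not in VAL, 8 genes were bound (14.3%, against 6.35% of the other genes), namely EIF1, EIF1B, EIF2AK4, EIF2B2, EIF3E, EIF4H, EIF5 and EIF6. In VAL and not in OCI-Ly1, 10 were bound (17.9%, against 8.43%), namely EIF2AK3, EIF2D, EIF2S2, EIF3D, EIF3F, EIF3H, EIF3I, EIF3K, EIF4G2 and EIF4G3. All of these but EIF3I were bound in VAL replicate 2 alone, which makes 9 genes (16.1%) against 8.11%. Some of these had a listed summit at the same place below the threshold. Of the 10 genes missed in OCI-Ly1 replicate 2, 7 had a listed summit within 100 bp of the highest one, as had 13 of 31 and 6 of 9 in the VAL libraries. Among other genes missed in the 3 libraries the shares were 49.4%, 31.5% and 49.3%, and the summits counted for EIF2AK4, EIF3CL and EIF3E had values of 0.12 or lower. In the band from 2 to 3 just under the threshold there were 4, 2 and 7 initiation factor genes in the 3 libraries. With the threshold at 2, the shares of initiation factor genes bound were 51.8%, 10.7% and 58.9%. Those of the other genes also rose, to 29.4%, 5.1% and 33.3%, so the band does not set the initiation factors apart. Only EIF2B1, EIF2S3 and EIF3G were bound in all 3 libraries (5.36%, interval 1.84 to 14.6), against 2.73% of the other genes, and they were also the only ones bound in both VAL replicates, against 2.93%.

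Where a gene was bound both in the OCI-Ly1 library and in VAL replicate 2, the summits were mostly at one place. For 13 of 17 genes (76.5%) the OCI-Ly1 replicate 2 and VAL replicate 2 summits lay within 100 bp, against 80.7% of 2506 other genes, and for 8 (47.1%) within 50 bp, against 67.3%. The median distance was 53 bp against 30.5 bp. The genes over 100 bp were EIF1AD, EIF2A, EIF2B4 and EIF4ENIF1.

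Peaks of initiation factor genes lay close to the TSS, as did those of most other bound genes. The summit was within 500 bp of the closest TSS of the gene for 24 of 25, 4 of 4 and 25 of 26 bound genes in the 3 libraries (96%, 100% and 96.2%), against 82%, 85.1% and 80.1% of the other bound genes. The exceptions were EIF2AK4 and EIF2B4. Median distances were 40, 37 and 59 bp, against 71, 59 and 84 bp. By group, in VAL replicate 2 the EIF4 summits had a median distance of 25 bp, the EIF3 summits 40 bp and the EIF2 summits 248 bp. In OCI-Ly1 replicate 2 the EIF2 median of 242 bp was again the longest, with 29 bp for EIF4 and 23.5 bp for EIF3, and these rest on 4 to 9 genes each. Initiation factor genes have more annotated TSS, with a median of 9 against 5 in other genes, which widens the area searched and shortens distances, and its part in these results was not tested. With the 5′ end of each gene as its only TSS, 32 of 56 were bound in at least 1 library (57.1%) against 22.9%.

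**Figure D4:**
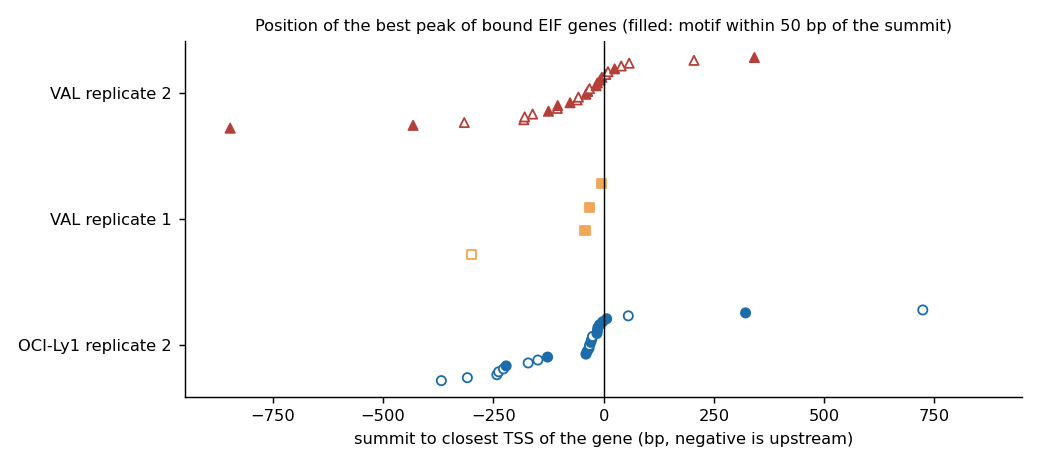
Distance from the summit to the closest TSS of the gene (bp, horizontal axis, negative is upstream) for the best peak of every bound EIF gene in each library, spread vertically for legibility only, with filled symbols where the motif lies within 50 bp of the summit. Most symbols crowd between the TSS and 250 bp upstream, and the farthest are EIF2B4 at 847 bp upstream and EIF2AK4 at 724 bp downstream.

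Over libraries, 20 of the 35 bound initiation factor genes (57.1%) had CCGGAAA or CCGGAAG at the summit of a best peak, against 48.2% of the other bound genes. In OCI-Ly1 replicate 2 the count was 14 of 25 (56%, interval 37.1 to 73.3) against 52.1%. The VAL libraries gave 3 of 4 against 63.4% and 13 of 26 (50%, interval 32.1 to 67.9) against 45.7%. These shares are near those of other bound genes. In a window 250 bp to the side the motif was found for 3 genes (12%), 0 genes and 1 gene (3.85%), against 4.40%, 4.45% and 3.57% of the others, lower than at the summit in both sets. Median GC content of the windows was 68.3%, 69.3% and 67.8%, against 67.3%, 67.3% and 68.3%.

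The reference promoters of initiation factor genes held the motif more often than those of other genes. In the window from 250 bases before to 50 after the canonical TSS, 24 of 56 initiation factor genes (42.9%) held CCGGAAA or CCGGAAG on either strand, against 18.1% of 19810 other protein-coding promoters. The EIF3 group had 9 of 14 (64.3%), the EIF2 group 7 of 15 (46.7%) and the EIF4 group 4 of 16 (25%). Of the 24 genes with the motif, 19 were bound in at least 1 library (79.2%), and of the 32 without it, 16 (50%). Among other genes these shares were 61.1% and 20.1%. The EIF4 genes with the motif, EIF4E2, EIF4EBP2, EIF4G1 and EIF4G3, were all bound, while EIF2AK1, EIF2S3B, EIF3C, EIF3M and EIF5A2 had it and were not. EIF3C cannot be separated here from EIF3CL, which had the motif and was called bound. A motif in the promoter window need not lie at the peak. EIF1B, EIF2B2, EIF3H, EIF3K and EIF4G3 had the promoter motif but no motif within 50 bp of a passing summit.

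**Figure D5:**
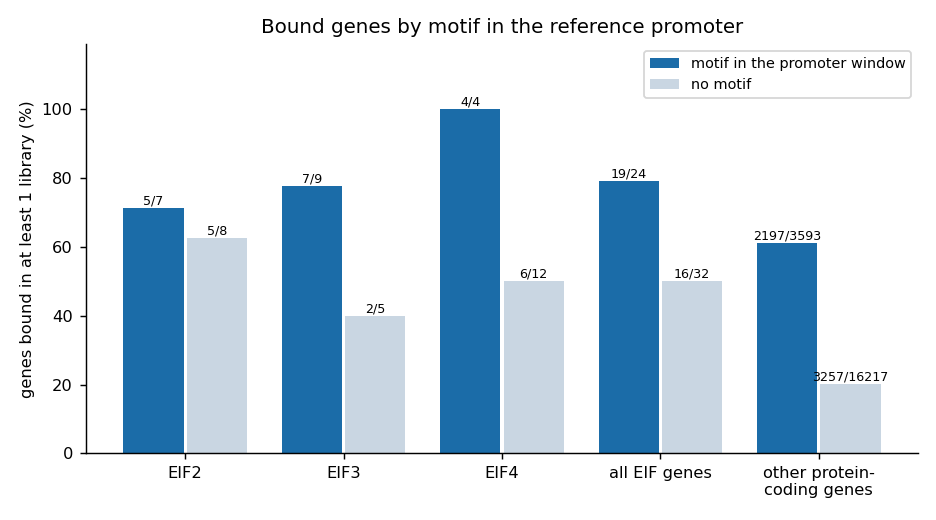
Share of genes bound in at least 1 library (percent, vertical axis) by whether the reference promoter holds CCGGAAA or CCGGAAG, with the number of bound genes of all genes above each bar. Among EIF genes 19 of 24 with the motif and 16 of 32 without it were bound, and among other protein-coding genes the shares were 61.1% and 20.1%.

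A peak counts for every gene with a TSS within 3 kb, so some of these calls may belong to a neighbour. The best peak was within 3 kb of another protein-coding gene for 11 of 25, 2 of 4 and 12 of 26 bound genes in the 3 libraries (44%, 50% and 46.2%), against 39.2%, 41.5% and 38.3% of the other bound genes. By the summit, the TSS of the initiation factor gene was the closest one for 21, 3 and 19 bound genes (84%, 75% and 73.1%). Among the other bound genes these shares were 71.5%, 70.7% and 72.3%. When a peak counted only for the gene with the closest TSS, 26 of 56 were bound in at least 1 library (46.4%) against 21.7%, and the count in both lines fell to 11 (19.6%) against 8.11%. That setting called 18, 3 and 19 genes in the 3 libraries, so its assignment of peaks is not the one by summit given before.

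Genes of neighbouring steps were counted in the same way for comparison. The lists were chosen by function with earlier results of these data known, so they are no independent reference. Of 81 genes in 5 related lists, 40 were bound in at least 1 library (49.4%, interval 38.8 to 60) and 19 in both lines (23.5%, interval 15.6 to 33.8), which overlaps the intervals of the initiation factors. Among the other protein-coding genes the shares were 27.3% and 12.6%. The cytosolic aminoacyl-tRNA synthetases, which charge tRNAs, gave 12 of 20 (60%), and the partners of the mRNA tail and of scanning, PABPC1 and DDX3X among them, 7 of 12 (58.3%). The integrated stress response, which starts from phosphorylated eIF2, gave 6 of 11 (54.5%), including its transcription factor ATF4. The mTORC1 pathway gave 9 of 22 (40.9%) and the elongation and termination factors 6 of 16 (37.5%), and the intervals of both (23.3 to 61.3 and 18.5 to 61.4) include 27.3%. ATF4, GSPT1, HARS1 and SARS1 were bound in all 3 libraries, which makes 4 of the 81 genes (4.94%, interval 1.94 to 12) against 2.73%.

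In all, 21 of the 56 genes were not bound in any library, of which 20 are given singly above and the other lies on the Y chromosome. Of the 20, 4 came close with a highest -log10 q from 2 to 3 (EIF2AK1, EIF3C, EIF3J and EIF4E1B), and 4 stayed under 1 (EIF1AX, EIF2AK2, EIF2S3B and EIF5AL1). In these libraries a gene under the threshold is one with no listed peak or with a best peak that did not pass, and absence of FLI1 was not shown.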

How the data were processed

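FLI1 ChIP-Seq of OCI-Ly1 and VAL was analysed from 1 peak list per library, and the 4 samples of input DNA are not used here. Per the study's methods, the authors mapped reads to GRCh37 with bowtie2 and kept unique, non-duplicate reads of mapping quality 10 or more with SAMtools; the submitters' processing notes name BWA and CASAVA 1.4 instead. The methods name HOMER with a false discovery rate of 0.001 for peaks, which a −log10 q of 3 equals, while the lists have the 10 columns of a MACS2 list and were not cut there. The program that made these lists, its control and its settings are not given in the sources used here. The deposited fold enrichment is a ratio of reads at the summit to local background. The deposited −log10 p-value and −log10 q-value belong to the summit. The deposited score, a whole number, was not used. Reads at summits were inferred from fold and p as (reads + 1) / (background + 1) with a Poisson p-value, in a sample of 300 passing peaks per library and at every best peak.

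Peak centres were compared with all TSS of GENCODE release 44 on GRCh37, and genes of 1 symbol were merged. A gene was bound at a −log10 q of at least 3 within 3 kb. Sequences and motifs were read from GRCh37 on both strands, and each control window lay 250 bp from the summit. The printed sequences follow a rule (bound in both lines, motif within 50 bp, the 12 highest, none from chromosome 8). Values by library were set for genes bound in 2 or more libraries, the 3 highest bound in 1, and those beside the threshold, and other members are given more briefly. The 3 GGAA sequences and the peaks inside genes were added after the values were seen. The members and the related lists were chosen with earlier results of these data known. Nothing in the labels says that replicates came from separate cultures. No tests were made; shares have Wilson 95% intervals. Alternatives covered the threshold, fold, distance, TSS, closest gene, number of peaks, motif, window and each library left out. Tested on simulated data, the scripts recovered the reads at 500 of 500 summits and the best peak for 200 of 200 genes. The simulated summits were made with the same formula for reads, so this checks the code and not whether the deposited lists follow that formula. Tools were pysam 0.24.0 and samtools 1.23.1 for sequences, matplotlib 3.10.9 for figures, and pandas 2.3.3, scipy 1.17.1 and numpy 2.4.6 under python 3.11.15 for the rest.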

Additional observations from a re-analysis of the deposited data

How the results depend on the processing

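Of the counts recomputed under another setting, 79 stayed within 1.5 times the reported count and 25 did not. At a -log10 q of at least 5, bound genes numbered 14 in OCI-Ly1 replicate 2 (25% against 11.9% of other genes) and 14 in VAL replicate 2 (25% against 12.2%). They numbered 20 in at least 1 library (35.7% against 16.6%) and 8 in both lines (14.3% against 7.56%). The EIF3 group had 4 (28.6%) and the EIF4 group 5 (31.2%), against the same 16.6%. With a fold of at least 6 added, OCI-Ly1 replicate 2 had 16 (28.6% against 12.9%) and VAL replicate 2 had 17 (30.4% against 13%). Then 22 were bound in at least 1 library (39.3% against 17.9%) and 11 in both lines (19.6% against 8.09%). The EIF3 group had 5 (35.7%) and the EIF4 group 6 (37.5%), against the same 17.9%. With the closest TSS only, 11 were bound in both lines (19.6% against 8.11%) and 6 in the EIF2 group (40% against 21.7%). With the same number of peaks per library the counts became 7 for OCI-Ly1 replicate 2 (12.5% against 4.89% of other genes) and 4 for VAL replicate 2 (7.14% against 4.43%). They were 8 in at least 1 library (14.3% against 7.44%) and 5 in both lines (8.93% against 2.99%). The EIF2 group had 3 (20%), the EIF3 group 2 (14.3%) and the EIF4 group 2 (12.5%), against the same 7.44%. The motif GGAA gave 33 genes (94.3% against 89% of other bound genes) and CCGGAAGT 11 (31.4% against 19.5%). The motif reported gave 20 (57.1% against 48.2%). These settings admit fewer peaks, or a shorter or longer motif, by construction. Leaving out each library in turn gave 26 to 34 genes in at least 1 library (46.4% to 60.7%, against 19.2% to 27.2% of other genes). Both lines gave 3 to 17 (5.36% to 30.4%, against 2.81% to 12.5%). The 3 came without VAL replicate 2, where VAL replicate 1, with the fewest passing peaks, stands alone for VAL. The EIF2 group gave 7 to 10 (46.7% to 66.7%), against the same 19.2% to 27.2%. The EIF3 group gave 5 to 8 (35.7% to 57.1%, lowest without VAL replicate 2) and the EIF4 group 8 to 10 (50% to 62.5%). The motif was found for 14 to 19 (51.9% to 57.7%, against 46.2% to 52.2% of other bound genes). Both lines could not be counted without OCI-Ly1 replicate 2. No paired analysis was possible because these counts come from no test and only 1 OCI-Ly1 library was usable. With peaks passing on as few as 6 reads, calls near the threshold are the least certain.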

Other observations

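Inside the bodies of initiation factor genes, more than 3 kb from any of their TSS, 3 passing peaks were listed, each in an intron and each without CCGGAAA or CCGGAAG within 50 bp of the summit. The same count was not made for other protein-coding genes, so these peaks are examples and say nothing particular of initiation factor genes. EIF2B3, a subunit of the exchange factor for eIF2, had one in OCI-Ly1 replicate 2 at chr1:45331595-45332016 with a -log10 q of 3.38 on 7 reads, 9489 bp from its closest TSS. EIF4G3, a scaffold gene, had one in OCI-Ly1 replicate 2 at chr1:21333438-21333867 with a -log10 q of 3.62 on 6 reads. EIF3E, an eIF3 subunit, had one in VAL replicate 2 at chr8:109299992-109300437 with a -log10 q of 4.65 on 8 reads.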
